A study of Mus musculus with 16 samples.

Results

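Primary hippocampal neurons that received lipoproteins carrying human apoE2 were compared with neurons that received control medium without apoE. All 4 apoE2 libraries and all 4 control libraries of the series entered, which makes 8 of its 16, and libraries with the same replicate number, 1 to 4, were treated as pairs. Of the 48397 gene symbols in the files, 17038 had enough counts to be tested, and every one of them belongs to the comparison. The neurons came from newborn wild-type CD1 mice (P0 to P2). Medium was collected from immortalized mouse astrocytes, 1 line per genotype, which were either homozygous for human *APOE* ε2 (targeted replacement of the mouse gene) or *Apoe*-/- (the control). Both media were serum-free and both were conditioned in the presence of 25-hydroxycholesterol, so that this compound is common to the groups. The media were concentrated 10-fold and given at 10 and 13 days in vitro (DIV), and RNA was taken at 17 DIV. All cultures also received AraC, which kills dividing cells, at a concentration that the sample labels and the methods of the study give in different units. Ribosomal RNA was depleted before sequencing.

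ApoE is the main carrier of cholesterol and other lipids between cells of the brain, and astrocytes make most of it. Neurons take up its particles through a family of lipoprotein receptors and bind them on heparan sulfate proteoglycans at the cell surface. The apoE2 isoform is known for a lower risk of Alzheimer's disease than the common isoform apoE3, and apoE4 for a higher one. All neurons were wild-type mouse cells, so the isoform was a property of the medium and not of the cells sequenced.

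Between 15984860 and 34248172 reads were counted on genes in the apoE2 libraries and between 18569593 and 28482361 in the control libraries, and levels are given below in CPM, the counts of a gene divided by the scaled library size and multiplied by 1000000. The shallowest and the deepest of the 8 were both apoE2 libraries, replicates 1 and 4. The neuronal label was borne out by the markers: *Map2* had 1912, 2090.0, 2493 and 1597 CPM in control replicates 1 to 4 and 2021, 2295, 3112 and 2042 CPM in apoE2 replicates 1 to 4, and the synaptic protein *Snap25* had 856, 1296, 1584 and 618 and 806, 1215, 1389.5 and 626 CPM. Markers of other cells were also present in both groups. Astrocyte markers summed to 1753 to 4208 CPM in the control and 1728 to 4310 CPM with apoE2, oligodendrocyte markers to 135 to 595 and 149 to 1019 CPM, microglia markers to 30.5 to 97.4 and 28.9 to 79.1 CPM, and endothelial markers to no more than 9.74 and 12.6 CPM. The libraries differed first by replicate number: the leading principal component held 54.1% of the variance of the 8 libraries, with 93.0% of it between replicate numbers against 2.64% between groups, while the fourth, with 8.37%, had 77.7% between groups.

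With apoE2, 200 genes were higher and 94 were lower than in the control at an adjusted p under 0.05 (edgeR's quasi-likelihood test with the replicate number as a block, Benjamini-Hochberg over all tested genes). These are 1.17% and 0.552% of the 17038 genes, and 280 of the 294 are protein-coding. Most changes were modest: the median absolute log2 fold change was 0.91 over the higher genes and 0.81 over the lower genes, and 79 and 24 of them passed a 2-fold change. All 4 pairs moved the same way in 196 of the 200 higher genes and in all 94 lower genes. The genes were chosen by a test on these same pairs, so that count is no independent evidence. The 4 apoE2 libraries did not overlap the 4 control libraries in 48 higher and 26 lower genes, where 2.19% of all tested genes showed no overlap, so for most of the genes the change was visible within pairs but not between the raw groups. The calls need the pairing: without the block edgeR called 0 genes, with 475 at an unadjusted p under 0.05 (2.79% of the tested genes) and a smallest adjusted p of 0.109, while DESeq2 called 29 without and 709 with the block.

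**Figure D1:**
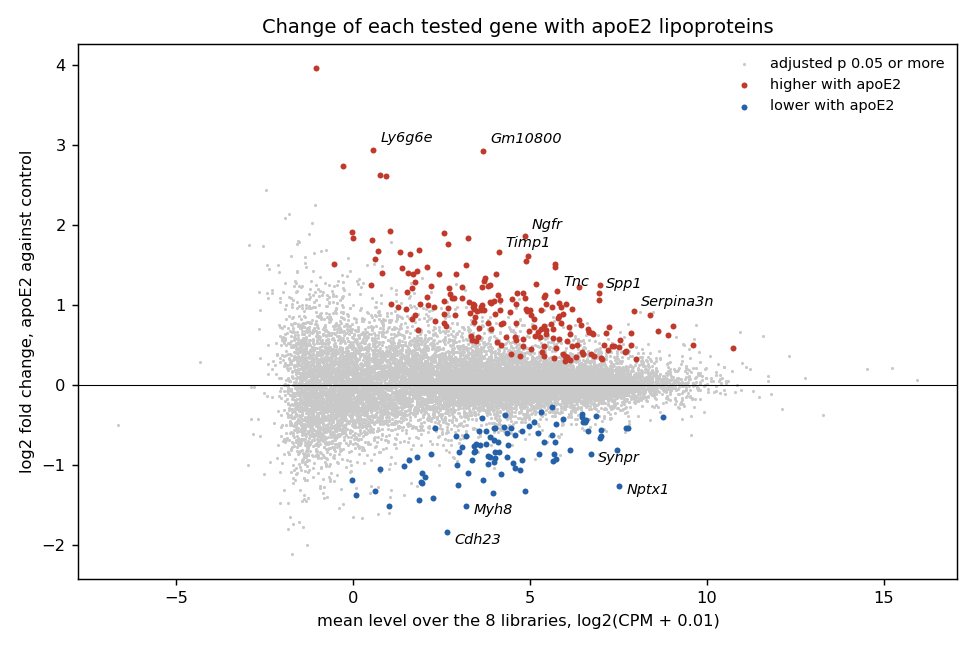
Each point is 1 of the 17038 tested genes, with its mean level over the 8 libraries on the x axis (log2 of CPM + 0.01) and its log2 fold change, apoE2 against control, on the y axis. Red points are the 200 genes higher and blue points the 94 genes lower at an adjusted p under 0.05, and the higher genes reach larger changes than the lower ones.

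*Spp1*, *Timp1*, *Tnc* and *Hspb1* were among the 15 higher genes with the smallest p. *Spp1* (chr5:104435118-104441050), which encodes osteopontin, a secreted phosphoprotein that binds integrins, had 88.3, 21.7, 15.99 and 177 CPM in control replicates 1 to 4 and 270.3, 41.3, 35.3 and 334 CPM in apoE2 replicates 1 to 4. Within every pair the apoE2 library was higher, although the groups overlapped because the level differed several-fold between replicate numbers, and the log2 fold change was 1.15 ± 0.13 (SE), with an adjusted p of 0.000774 (edgeR). *Timp1* (chrX:20870166-20874735), an inhibitor of matrix metalloproteinases, had 6.09, 1.41, 8.38 and 19.2 CPM in the control and 41.2, 4.81, 23.6 and 33.5 CPM with apoE2, which gave 1.66 ± 0.23 as log2 fold change (edgeR, adjusted p = 0.00379). *Tnc* (chr4:63959785-64047015), which encodes the matrix glycoprotein tenascin-C, had 32.1, 12.8, 27.01 and 54.3 CPM and 108, 21.3, 55.8 and 119 CPM in the same order, a log2 fold change of 1.17 ± 0.16 (adjusted p = 0.00294). For all of these genes number 2 was among the lowest pairs and number 4 among the highest, in both groups. *Hspb1* (chr5:135887919-135889563), a small heat shock protein, rose from 2.77, 0.362, 2.48 and 7.49 CPM to 12.5, 2.79, 6.78 and 16.5 CPM, by 1.77 ± 0.24 on the log2 scale (adjusted p = 0.00294). It was the inducible chaperone with the smallest p. Of the 21 chaperone genes tested, it and the co-chaperone *Bag3* (log2 fold change 1.01 ± 0.19) rose and none fell.

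**Figure D2:**
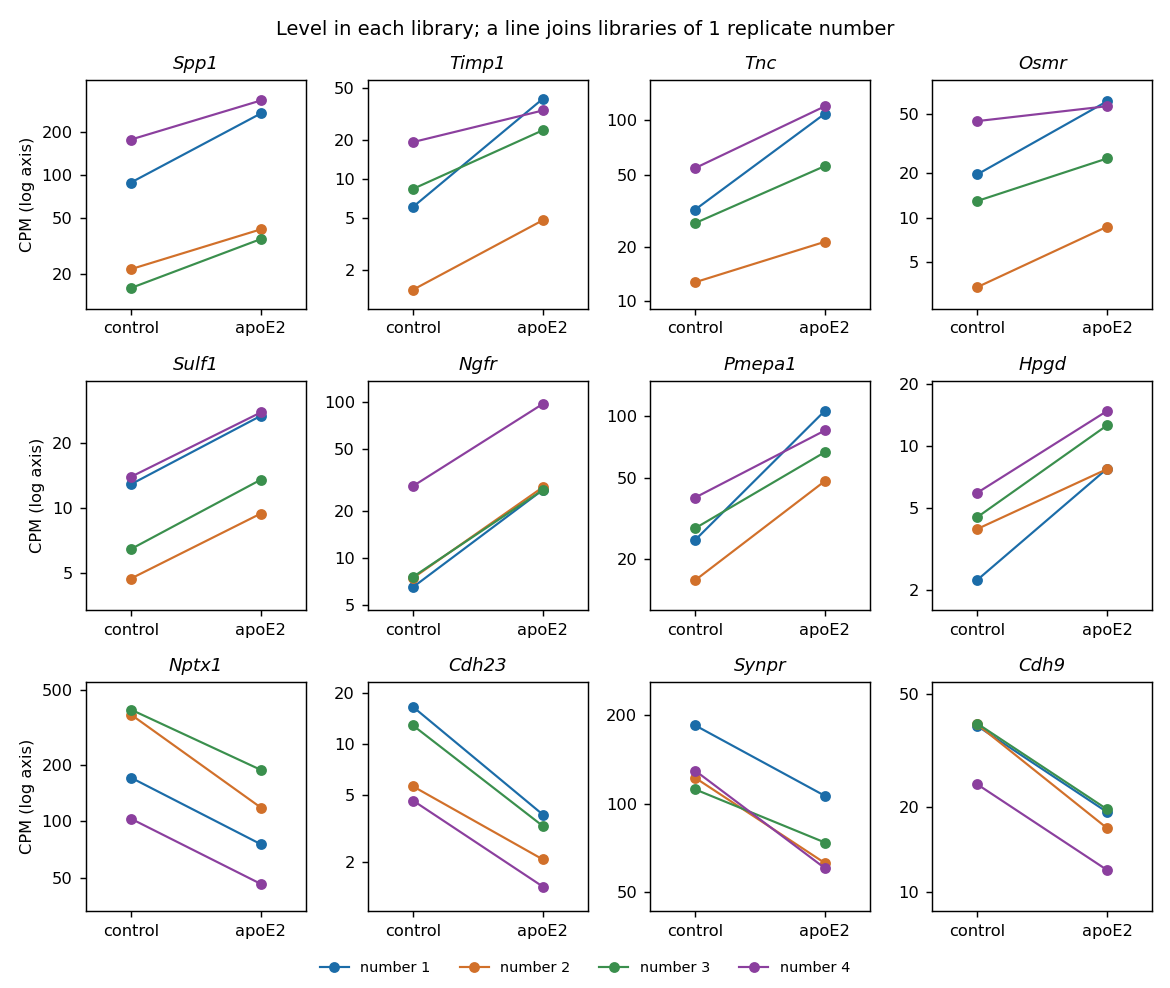
The level of 12 genes in each of the 8 libraries is shown in CPM on a log axis, with 1 colour per replicate number and a line from the control to the apoE2 library of that number. The 8 genes of the upper 2 rows were higher in all 4 pairs and the 4 genes of the lowest row were lower in all 4, while the level itself differed between numbers.

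Of 23 tested genes that are known to rise in reactive astrocytes, 9 rose and none fell, and all 23 log2 fold changes were above 0. Their median was 0.75, where the median over all tested genes was 0.01. Of all tested genes 1.73% were called in either direction, and the counts of every list below stand against that share. Besides *Timp1* and *Hspb1*, the genes that rose were *Serpina3n*, a secreted protease inhibitor (log2 fold change 0.92 ± 0.17), *Cd44*, the hyaluronan receptor (0.89 ± 0.17), *Osmr*, the oncostatin M receptor (1.08 ± 0.21), *S1pr3*, a sphingosine-1-phosphate receptor (0.84 ± 0.18), *Tgm1*, a transglutaminase (1.49 ± 0.26), *Cd109*, a surface protein that binds TGF-β (0.75 ± 0.15), and complement *C3* (0.87 ± 0.21). *Serpina3n* had 135, 113, 161 and 271 CPM in the control and 309, 198, 327 and 437 CPM with apoE2. Its relatives *Serpina3h* and *Serpina3i* also rose, by 1.25 and 1.09 on the log2 scale, but these copies are nearly identical and their counts may be shared. *Gfap*, the astrocyte intermediate filament, had 474, 189, 641 and 1288 CPM in the control and 1206, 329, 1070.0 and 1381 CPM with apoE2 and missed the threshold, with a log2 fold change of 0.75 ± 0.18 (adjusted p = 0.0532), as did *Lcn2* (0.92 ± 0.22, adjusted p = 0.0516). *C3* was the weakest of these calls: its level was slightly lower with apoE2 in pair 4 (731 against 776 CPM), its adjusted p was 0.0487, and it stayed called in 3 of the 20 fits that left out a library or a replicate number. In bulk RNA, more cells of a type and more RNA per cell cannot be told apart.

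Of 16 astrocyte marker genes tested, none was called by edgeR (8 at an unadjusted p under 0.05), with a median log2 fold change of 0.32 and 14 of 16 above 0. Their summed level was 2925, 1753, 3059 and 4208 CPM in control replicates 1 to 4 and 4310, 1728, 3564 and 3892 CPM in apoE2 replicates 1 to 4, so that it was higher with apoE2 in pairs 1 and 3, and lower in pairs 2 and 4. *Slc4a4*, a bicarbonate cotransporter (0.52 ± 0.13), and *Gfap* had the smallest p among them, while *Slc1a2*, the main glutamate transporter, had a log2 fold change of -0.39. *Osmr* had 19.6, 3.38, 12.9 and 44.99 CPM in the control and 61.2, 8.67, 25.1 and 56.7 CPM with apoE2, which is 1.64, 1.33, 0.95 and 0.33 higher on the log2 scale in pairs 1 to 4. Of 9 mural and contractile markers none was called by edgeR (4 at an unadjusted p under 0.05), but 7 lay above 0 with a median log2 fold change of 0.70. Their summed level was 51.8, 17.3, 23.8 and 167 CPM in control replicates 1 to 4 and 121, 24.2, 30.9 and 139.6 CPM in apoE2 replicates 1 to 4, higher with apoE2 in pairs 1 to 3 and lower in pair 4. Of 13 fibroblast and meningeal markers none was called by edgeR (1 at an unadjusted p under 0.05), with a median of 0.07 and 9 above 0. Their summed level was 139.5, 32.1, 28.9 and 194 CPM in control replicates 1 to 4. It was 214, 27.1, 31.5 and 124 CPM in apoE2 replicates 1 to 4, higher in pairs 1 and 3 and lower in pairs 2 and 4. The part that the share of astrocytes, contractile cells or fibroblasts plays in the changes of reactive astrocyte and matrix genes was not tested.

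Of 28 tested genes of cytokine signaling through gp130 and JAK-STAT, 5 rose and none fell, where 1.17% of all tested genes rose, with a median log2 fold change of 0.25. The transcription factor *Stat3* had 127, 103, 112 and 192 CPM in the control and 184, 135, 189 and 239 CPM with apoE2 (log2 fold change 0.49 ± 0.09, edgeR adjusted p = 0.0126). *Socs3*, the feedback inhibitor that STAT3 induces, had 6.86, 3.02, 4.36 and 19.3 CPM and 16.8, 5.69, 10.9 and 23.8 CPM (0.92 ± 0.20, adjusted p = 0.0351). *Cebpd*, a transcription factor of the acute-phase response, rose by 0.88 ± 0.18 on the log2 scale and the prolactin receptor *Prlr*, at a low level, by 1.25 ± 0.29. The shared receptor subunit *Il6st* (gp130) had a log2 fold change of 0.11 ± 0.10 and the LIF receptor *Lifr* one of 0.06 ± 0.09, neither past the threshold.

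The promoters of *Socs3*, *Tgm1*, *Osmr* and *Timp1*, 4 of the genes above that rose together, are printed because letters of known factor motifs lie within them. Each window runs from 250 bases before to 50 bases after the gene start, 5′ to 3′ on the gene's strand, from RefSeq (build GRCm38.p6), and capitals mark the motif. In *Socs3* and *Tgm1* they mark TTCNNNGAA, the STAT motif, in *Osmr* TGANTCA, the AP-1 motif, and in *Timp1* GGAATG, the TEAD motif, each searched on both strands.
*Socs3* (chr11:117969317-117969616, minus strand): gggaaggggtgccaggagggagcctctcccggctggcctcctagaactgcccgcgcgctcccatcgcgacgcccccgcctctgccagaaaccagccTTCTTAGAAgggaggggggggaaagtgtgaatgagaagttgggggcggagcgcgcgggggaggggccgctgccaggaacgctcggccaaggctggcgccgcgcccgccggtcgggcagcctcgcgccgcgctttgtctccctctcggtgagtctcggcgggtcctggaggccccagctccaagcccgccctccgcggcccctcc
*Tgm1* (chr14:55713443-55713742, minus strand): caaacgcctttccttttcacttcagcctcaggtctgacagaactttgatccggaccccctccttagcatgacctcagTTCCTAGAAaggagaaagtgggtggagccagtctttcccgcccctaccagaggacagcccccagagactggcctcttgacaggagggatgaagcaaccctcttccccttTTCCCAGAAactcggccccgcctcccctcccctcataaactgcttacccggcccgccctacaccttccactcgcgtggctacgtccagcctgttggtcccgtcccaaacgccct
*Osmr* (chr15:6874264-6874563, minus strand): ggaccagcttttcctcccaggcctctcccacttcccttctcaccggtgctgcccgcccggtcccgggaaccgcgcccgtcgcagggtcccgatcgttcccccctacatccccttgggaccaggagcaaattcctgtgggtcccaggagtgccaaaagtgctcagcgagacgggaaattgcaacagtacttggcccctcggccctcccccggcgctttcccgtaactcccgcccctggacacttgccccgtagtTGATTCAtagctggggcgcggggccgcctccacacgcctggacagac
*Timp1* (chrX:20869916-20870215, plus strand): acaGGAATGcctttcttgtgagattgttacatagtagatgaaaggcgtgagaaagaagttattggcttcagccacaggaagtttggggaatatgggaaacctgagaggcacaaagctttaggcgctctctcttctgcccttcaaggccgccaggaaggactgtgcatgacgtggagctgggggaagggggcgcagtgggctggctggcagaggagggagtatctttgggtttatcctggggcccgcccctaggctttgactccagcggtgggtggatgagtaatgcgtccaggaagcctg
The match in *Socs3* begins 154 bases before the start, those in *Tgm1* begin 173 and 64 bases before it, and the match in *Timp1* 247 bases before it, near the edge of the window. The same letters stood in other promoters too: the STAT motif stood in 8 of 147 promoters of genes called higher (5.44%), in 3 of 70 of genes called lower (4.29%), in 6.76% of 11600 tested genes and in 8.47% of all 27025 windows. The AP-1 motif stood in 11 of the 147 (7.48%) and in 2 of the 70 (2.86%), against 5.00% of the tested genes, and the TEAD motif in 18 (12.2%) and in 13 (18.6%), against 12.2%. Of 20 promoters of the reactive astrocyte genes, 4 held the STAT motif, 4 the AP-1 motif and 5 the TEAD motif. Among 23 promoters of the gp130 and JAK-STAT genes, 2 held the STAT motif (8.70%). Among 19 promoters of the list of Hippo pathway genes and targets given below, chosen after values had been seen, 10 held the TEAD motif (52.6%).

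Extracellular matrix genes changed in both directions. Of 43 collagen genes tested, 5 rose and 2 fell, with a median log2 fold change of 0.21. The fibrillar collagen *Col11a1* had 24.7, 36.6, 28.3 and 45.2 CPM in the control and 53.1, 56.4, 42.02 and 62.9 CPM with apoE2 (log2 fold change 0.69 ± 0.15, edgeR adjusted p = 0.0328), *Col5a2* rose by 1.02 ± 0.20 and *Col8a1* by 0.97 ± 0.20. *Col2a1*, the cartilage collagen, rose by 1.81 ± 0.36 from a mean of 0.659 ± 0.484 CPM (SD, n = 4), and the basement membrane collagen *Col4a6* rose by 0.94 ± 0.20. *Col25a1*, a neuronal transmembrane collagen found in amyloid plaques, had 74.8, 75.3, 75.6 and 52.1 CPM in the control and 29.9, 40.05, 51.4 and 27.1 CPM with apoE2 (log2 fold change -0.93 ± 0.20, adjusted p = 0.0324), and the groups did not overlap. *Col15a1*, a collagen next to basement membranes, fell by 1.51 on the log2 scale. Among 17 genes for laminins, nidogens and other basement membrane proteins, *Fn1*, which encodes fibronectin, and *Sparc*, a collagen-binding matricellular protein, rose. *Fn1* had 27.7, 5.47, 10.3 and 53.5 CPM and 56.7, 13.1, 50.98 and 72.2 CPM (log2 fold change 1.26 ± 0.22, adjusted p = 0.0113). Of 13 genes for lecticans, tenascins and link proteins, *Tnc* and the chondroitin sulfate proteoglycan *Vcan* (versican, 0.77 ± 0.17) rose and none fell.

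Integrin genes were also among those that rose. Of 21 integrin genes, *Itga5* (the fibronectin receptor subunit, log2 fold change 1.397 ± 0.23), *Itga9* (a tenascin-C receptor subunit, 0.82 ± 0.18) and *Itgav* (0.67 ± 0.13) rose and none fell, with a median of 0.28 over the list. *Itga5* had 2.27, 0.604, 0.942 and 2.99 CPM in the control and 5.496, 1.34, 3.98 and 5.9004 CPM with apoE2, higher in every pair. A list of 28 genes of the Hippo pathway and its targets, chosen after values had been seen, held 4 that rose and none that fell, with 25 of 28 above 0 and a median of 0.43. *Ctgf*, a secreted target of YAP and TEAD, had 21.5, 2.94, 7.68 and 29.3 CPM and 88.2, 7.95, 23.8 and 53.6 CPM (log2 fold change 1.55 ± 0.28, adjusted p = 0.0122). The coactivator *Wwtr1* (TAZ) rose by 0.97 ± 0.20, the kinase *Lats2* by 0.65 ± 0.11 and the Rac activator *Dock5* by 0.995 ± 0.21.

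Heparan sulfate genes, which bear on the surface that binds apoE, included one of the strongest calls. *Sulf1* (chr1:12692277-12861192), an extracellular enzyme that removes 6-O-sulfate groups from heparan sulfate, had 12.9, 4.71, 6.46 and 13.98 CPM in the control and 26.8, 9.44, 13.6 and 27.8 CPM with apoE2, between 0.99 and 1.06 higher on the log2 scale in each pair (log2 fold change 1.03 ± 0.12, edgeR adjusted p = 0.000983). Its relative *Sulf2* had 101, 76.6, 132 and 131 CPM and 177, 121, 198 and 193 CPM (0.65 ± 0.12, adjusted p = 0.0124). Both enzymes thus rose, as did *Hs6st1*, which adds the 6-O-sulfate groups (0.37 ± 0.09), *Ext1*, a polymerase of the heparan sulfate chain (0.32 ± 0.07), and *Papss2*, which makes the sulfate donor (1.39 ± 0.28). The core protein *Gpc3* (glypican 3) went the other way, from 7.32, 6.88, 1.43 and 5.97 CPM to 2.11, 2.33, 0.919 and 2.06 CPM (-1.44 ± 0.34, adjusted p = 0.0439). These are the 6 called of 33 tested in a list of heparan sulfate proteoglycans and enzymes that was chosen after values had been seen, and the median of the list was 0.09.

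Of 36 tested genes of TGF-β and BMP signaling, 4 rose and 2 fell. *Pmepa1*, a membrane protein that TGF-β induces and that restrains its signaling, had 24.7, 15.7, 28.2 and 39.9 CPM in the control and 107, 48.1, 66.8 and 85.3 CPM with apoE2, and the groups did not overlap (log2 fold change 1.51 ± 0.23, edgeR adjusted p = 0.00452). *Ldlrad4*, a related inhibitor, had 8.64, 14.3, 9.39 and 9.01 CPM and 20.01, 22.9, 20.1 and 21.6 CPM (1.05 ± 0.13, adjusted p = 0.00194), but 53.1% of its exonic bases overlap a gene on the opposite strand and whether reads were counted by strand is not given in the sources used here. *Skil*, a transcriptional repressor of the pathway, rose by 0.72 ± 0.15 and the ligand *Bmp6* by 1.01 ± 0.23. *Smad3* (chr9:63646767-63757994), the transcription factor that carries the TGF-β signal, went down: it had 65.7, 36.99, 53.6 and 52.8 CPM in the control and 40.1, 18.4, 34.3 and 36.95 CPM with apoE2 (-0.72 ± 0.10, adjusted p = 0.00296). *Id2*, an inhibitor of bHLH factors that BMPs induce, fell by 0.52 on the log2 scale. The other 30 members, among them the TGF-β ligands and their receptors, did not pass.

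Receptors of axon growth and patterning showed single large changes. *Ngfr* (chr11:95568818-95587735), the p75 neurotrophin receptor, had 6.55, 7.49, 7.61 and 28.9 CPM in the control and 27.3, 28.4, 27.3 and 96.7 CPM with apoE2, between 1.74 and 2.05 higher on the log2 scale in each pair, with number 4 far above the others in both groups (log2 fold change 1.86 ± 0.28, edgeR adjusted p = 0.00452). *Lingo4*, a leucine-rich repeat protein of the LINGO family, had 0.636, 0.644, 1.26 and 0.838 CPM and 2.61, 3.02, 4.94 and 2.37 CPM without overlap (1.92 ± 0.29, adjusted p = 0.00452). These were the only calls among 12 genes of the LINGO and Nogo receptor family, whose median was -0.16. Of 48 Wnt genes 2 were called, again against 1.73%: *Wnt5b* rose by 1.205 ± 0.25 and *Wnt7a*, a neuronal ligand that promotes synapse formation, fell from 13.1, 8.17, 4.68 and 15.6 CPM to 6.62, 3.29, 3.75 and 6.36 CPM (-1.002 ± 0.20, adjusted p = 0.0185). Of 70 axon guidance genes, in a list chosen after values had been seen, 3 rose and 3 fell. *Srgap2*, a Rac GTPase-activating protein of the Slit-Robo pathway, rose by 0.50 ± 0.09, *Plxnb1* by 0.70 ± 0.16 and *Sema7a* by 0.34 ± 0.07. The netrin-G family member *Ntng2* fell from 36.6, 45.6, 28.2 and 32.3 CPM to 16.3, 23.96, 19.4 and 14.9 CPM (-0.94 ± 0.15), *Efnb3* by 0.67 and *Sema5b* by 0.94 on the log2 scale.

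Lipid mediator and retinoid genes gave a few calls each. *Hpgd*, the enzyme that inactivates prostaglandins, had 2.23, 3.94, 4.502 and 5.92 CPM in the control and 7.75, 7.72, 12.6 and 14.8 CPM with apoE2, without overlap (log2 fold change 1.38 ± 0.22, edgeR adjusted p = 0.00623). *Ptger3*, a prostaglandin E2 receptor, had 15.4, 11.2, 12.1 and 20.01 CPM and 25.5, 30.1, 23.7 and 41.9 CPM, also without overlap (1.07 ± 0.24, adjusted p = 0.0358). They were the 2 called of 16 genes of prostaglandin metabolism. Of 18 retinoid and vitamin D genes, *Cyp26b1*, which degrades retinoic acid (1.38 ± 0.29), and the retinoid X receptor *Rxrg* (0.73 ± 0.17) rose. *Cyp26b1* stood at 5.501, 1.97, 11.9 and 13.9 CPM in the control and at 10.1, 4.59, 21.7 and 61.5 CPM with apoE2, with the largest step in pair 4.

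The other leading genes among those that rose had diverse functions. *Rgs9* (chr11:109225355-109298129), which ends signaling by G proteins, had 5.82, 1.81, 2.79 and 10.998 CPM in the control and 13.5, 5.999, 6.703 and 20.2 CPM with apoE2 (log2 fold change 1.23 ± 0.13, edgeR adjusted p = 0.000774). *Cpne8*, a calcium-dependent membrane-binding protein, rose by 0.95 ± 0.12, *Map3k9*, a kinase above JNK, by 0.77 ± 0.10 and *Rbms1*, an RNA-binding protein, by 1.04 ± 0.14. *Rab27b*, a GTPase of secretory vesicles, had 11.7, 25.3, 20.3 and 12.8 CPM and 37.9, 57.8, 33.5 and 25.7 CPM, without overlap (1.15 ± 0.16, adjusted p = 0.004). *Dlat*, a subunit of the pyruvate dehydrogenase complex, rose by 0.56 ± 0.08, *Ppfibp1* (liprin-β1) by 0.76 ± 0.11, the adenylyl cyclase *Adcy7* by 1.47 ± 0.21 and the actin-binding *Cnn2* (calponin 2) by 0.96 ± 0.14. The largest log2 fold changes among the called genes with a mean of at least 1 CPM in either group were those of *Ly6g6e* (2.93 ± 0.54), a member of the LY6 family, the predicted gene *Gm10800* (2.92 ± 0.51), the bHLH factor *Ascl2* (2.74 ± 0.44), *Fam159b* (2.62 ± 0.58) and *Gm10801* (2.605 ± 0.52). All but *Gm10800* met that level through the apoE2 group alone, with control means of 0.357, 2.70, 0.215, 0.479 and 0.505 CPM in the same order, so the size of these changes rests on few control reads. *Gm10800* and *Gm10801* are neighbours in repeated sequence, so that their reads may come from other copies, and in pair 4 *Gm10800* had 1.94 CPM in the control and 2.49 CPM with apoE2, a much smaller difference than in the other pairs. Of 30 genes of mitosis and the spindle, *Top2a*, which untangles DNA, rose from 2.18, 2.46, 4.57 and 7.44 CPM to 8.88, 15.3, 13.1 and 21.4 CPM (1.84 ± 0.34, adjusted p = 0.014), and the median of the list was 0.27.

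*Nptx1* and *Synpr*, which encode proteins of synapses, were among the 15 lower genes with the smallest p. *Nptx1* (chr11:119538719-119547753), a secreted pentraxin that gathers AMPA receptors at excitatory synapses, had 171, 371, 394 and 103 CPM in control replicates 1 to 4 and 75.3, 118, 188 and 46.2 CPM in apoE2 replicates 1 to 4. It was lower in all 4 pairs (log2 fold change -1.26 ± 0.14, edgeR adjusted p = 0.000774), and it was the only call among 13 genes for pentraxins, C1q-like proteins and cerebellins, 9 of which lay below 0. *Synpr*, the synaptic vesicle protein synaptoporin, had 184, 122, 112 and 129 CPM and 106, 62.9, 73.8 and 60.4 CPM, without overlap (-0.86 ± 0.13, adjusted p = 0.0045). *Gsg1l*, an auxiliary protein that dampens AMPA receptors, had 7.001, 6.16, 5.13 and 3.72 CPM and 2.18, 4.47, 2.68 and 1.12 CPM (-1.15 ± 0.24, adjusted p = 0.0296) and was the only call of 23 AMPA receptor genes. *Slc30a3*, which loads zinc into synaptic vesicles, fell from 12.8, 14.8, 14.1 and 2.67 CPM to 3.52, 7.41, 5.94 and 1.53 CPM (-1.25 ± 0.28, adjusted p = 0.0362), the only call among 24 zinc transporters and metallothioneins. The postsynaptic adhesion protein *Lrrtm3* fell by 0.64 on the log2 scale.

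Adhesion molecules and channels of neurons were also among the lower genes. *Cdh23* (chr10:60302748-60696490), a long cadherin known from the tip links of hair cells, fell from 16.5, 5.59, 12.8 and 4.61 CPM to 3.81, 2.06, 3.26 and 1.42 CPM without overlap, the largest fall among the called genes with a mean of at least 1 CPM in either group (log2 fold change -1.83 ± 0.23, edgeR adjusted p = 0.00194). *Cdh9*, a cadherin of hippocampal mossy fibre synapses, had 38.7, 39.2, 39.4 and 24.04 CPM and 19.2, 16.8, 19.6 and 11.95 CPM (-1.06 ± 0.21, adjusted p = 0.0185), and *Pcdh8*, an activity-induced protocadherin, had 222, 203, 308 and 160.0 CPM and 110.1, 127, 186 and 90.1 CPM (-0.81 ± 0.15, adjusted p = 0.013). *Pcdh10* rose, by 0.49 ± 0.08. These are the 4 called of 70 cadherins and protocadherins, a list chosen after values had been seen. Of 75 potassium channel genes 3 fell and 1 rose, against 1.73% of all tested genes called: *Kcnip3*, a calcium sensor that binds Kv4 channels (65.7, 55.7, 173 and 58.97 CPM in the control, 42.3, 32.7, 102 and 27.2 CPM with apoE2, log2 fold change -0.81 ± 0.12), *Kcnj9*, a GIRK channel subunit (-0.59), and *Kcnk1* (-0.41) fell, and the accessory subunit *Kcne1l* rose (1.61). Of 45 receptors for peptides and monoamines 3 were called (1.73% of all tested genes): the CRH receptor *Crhr1* fell from 23.96, 14.2, 20.3 and 18.3 CPM to 8.39, 10.8, 13.3 and 8.24 CPM (-0.90 ± 0.19), while the serotonin receptor *Htr7* (0.60) and *Prlr* rose. That list does not hold the receptors *Trhr*, *Prokr2* and *Tshr*, which rose too.

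Other genes that fell with a very small p were *Bok* (chr1:93685660-93695764), a pro-apoptotic member of the BCL2 family, *Mapk4*, an atypical MAP kinase, and the uncharacterised *E330009J07Rik*. *Bok* had 14.8, 15.9, 51.5 and 16.7 CPM in the control and 5.71, 6.57, 24.2 and 9.61 CPM with apoE2 (log2 fold change -1.11 ± 0.11, edgeR adjusted p = 0.000774). *Mapk4* had 23.004, 20.2, 22.1 and 17.5 CPM and 9.58, 13.3, 11.1 and 8.72 CPM (-0.96 ± 0.12, adjusted p = 0.00194), and *E330009J07Rik* had 114, 118, 132 and 118 CPM and 74.2, 77.4, 91.6 and 80.01 CPM (-0.58 ± 0.07). Both of the latter varied little between replicate numbers and did not overlap between groups. The CD47 receptor *Sirpa* fell by 0.54 on the log2 scale, the Rab GTPase-activating *Evi5l* by 0.42, the interferon-inducible *Ifi203* by 1.41, the syntrophin *Sntb2* by 0.69, *Klhdc8b* by 0.87, *Rgag4* by 0.71 and the neural zinc finger factor *Myt1* by 0.75. *Myh8*, a perinatal skeletal myosin, fell by 1.51 from 13.2, 14.8, 14.5 and 11.2 CPM to 6.06, 6.38, 3.6003 and 3.64 CPM.

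**Figure D3:**
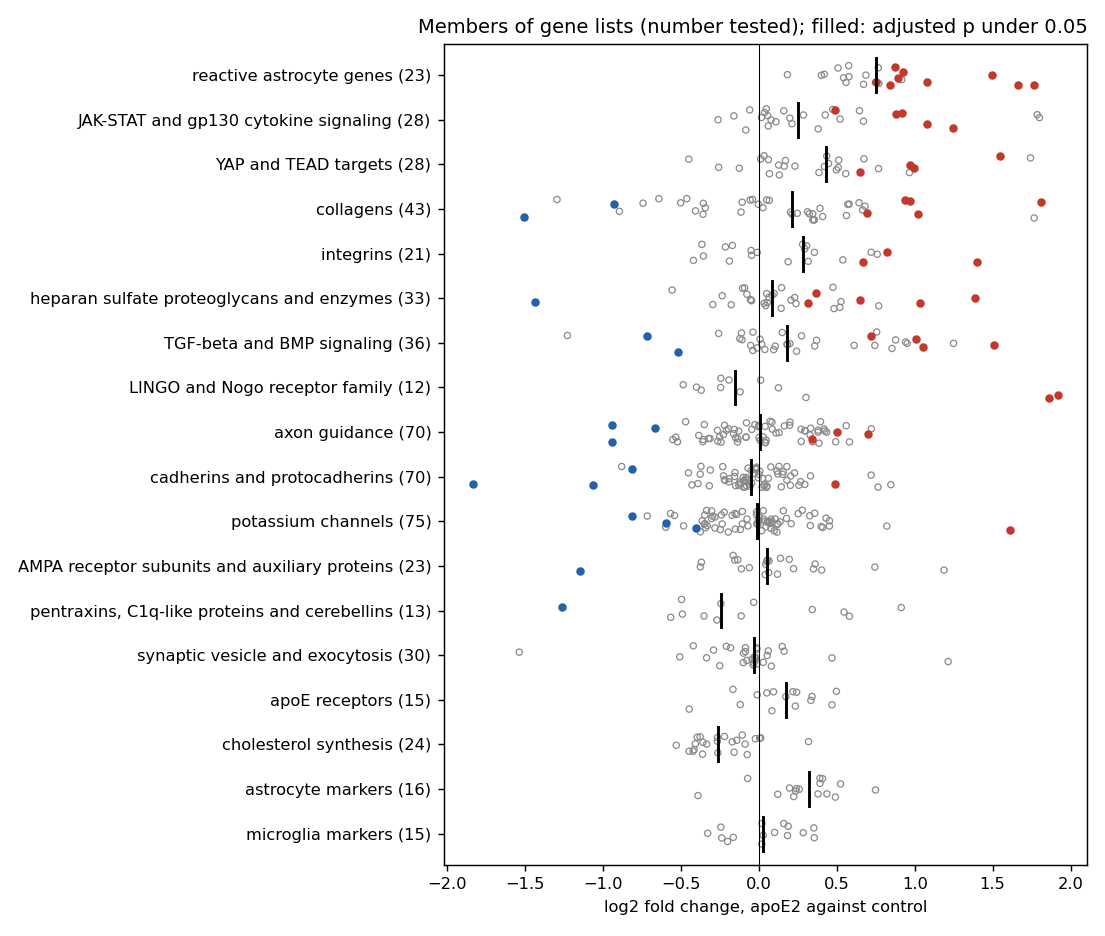
Each point is a tested member of a gene list, placed by its log2 fold change (apoE2 against control, x axis), with filled red points higher and filled blue points lower at an adjusted p under 0.05 and a black bar at the median of the list. The 23 reactive astrocyte genes all lie above 0 with a median of 0.75, whereas the synaptic vesicle, AMPA receptor and potassium channel lists have medians of -0.03, 0.05 and -0.01.

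Of 30 genes of synaptic vesicles and exocytosis 0 were called with the block (5 at an unadjusted p under 0.05, edgeR, which 13.3% of all tested genes had), and of 14 NMDA and kainate receptor genes 0 (3 at an unadjusted p under 0.05), with medians of -0.03 and -0.17. The vesicle list does not hold *Synpr* and *Slc30a3*, the synaptic vesicle genes described above that fell. *Grin3a* (-0.50 ± 0.12, adjusted p = 0.0558) and *Grik3* (-0.75 ± 0.22, adjusted p = 0.103) came nearest in the latter list. The synaptic proteins that the study stained had log2 fold changes close to 0 at the RNA level: *Dlg4* (PSD-95) -0.09 ± 0.10, *Grin1* -0.03 ± 0.14 and *Syp* (synaptophysin) -0.03 ± 0.12. The dendritic protein *Map2*, also stained, had 0.23 ± 0.12, and the adjusted p of these genes ran from 0.466 to 0.966. Of 32 activity-regulated immediate early genes 0 were called (7 at an unadjusted p under 0.05), *Arc* having the smallest p (-0.64 ± 0.16, adjusted p = 0.0651).

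Of 15 apoE receptors and their partners 0 were called by edgeR (3 at an unadjusted p under 0.05). *Lrp8*, the reelin and apoE receptor ApoER2, had 76.3, 96.4, 143 and 82.95 CPM in the control and 90.9, 122, 188 and 107 CPM with apoE2, higher in all 4 pairs (log2 fold change 0.34 ± 0.08, adjusted p = 0.0536), and *Lrp1*, *Vldlr* and *Sorl1* had log2 fold changes of 0.09 ± 0.14, -0.01 ± 0.10 and 0.24 ± 0.13. *Apoe* itself, the mouse gene of the cultures, had 907, 339, 834 and 1730.0 CPM and 1774, 408, 835 and 1258 CPM (0.21 ± 0.18, adjusted p = 0.687), and since the human protein came with the medium this gene does not check the labels. Of 24 cholesterol synthesis genes 0 were called (5 at an unadjusted p under 0.05), but 21 lay below 0 with a median of -0.26, *Hsd17b7* having the smallest p (-0.33 ± 0.10, adjusted p = 0.105). Of 15 targets of the sterol receptor LXR 0 were called (2 at an unadjusted p under 0.05), with the cholesterol exporter *Abca1* at 0.66 ± 0.17 (adjusted p = 0.0687) and *Srebf1* at 0.63 ± 0.16 (adjusted p = 0.0687).

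Against apoE3, 102 genes were higher and 122 lower with apoE2 (1.31% of the tested genes in either direction), and against apoE4, 313 were higher and 444 lower (4.44%). Without the block edgeR called 0 and 43 genes in these contrasts. Both use the same apoE2 libraries, so they are not independent. The rule for naming genes took the 8 with the smallest p among the 99 that passed in both in the same direction. Of these 99, 28 also passed against the control. *Hpca*, the neuronal calcium sensor hippocalcin, was higher with apoE2 than with apoE3 (log2 difference 0.96 ± 0.13, edgeR adjusted p = 0.00427) and apoE4 (0.91 ± 0.13, adjusted p = 0.00132), and had 207, 440.2, 752 and 129 CPM in the control and 364, 849, 916 and 185 CPM with apoE2 (0.63 ± 0.13 against the control). *Asph*, an aspartate hydroxylase of the endoplasmic reticulum, differed by 0.45 ± 0.07 from apoE3 and 0.47 ± 0.07 from apoE4, and the guanine nucleotide exchange factor *Arhgef28* by 1.31 ± 0.21 and 1.499 ± 0.21. *Col28a1* differed by 1.13 ± 0.18 and 1.17 ± 0.18, and *Dsp* (desmoplakin) by 1.28 ± 0.15 and 0.87 ± 0.14. *Smad3* was lower with apoE2 by -0.62 ± 0.10 and -0.82 ± 0.10. *Epb41l5* (-0.69 ± 0.11 and -0.87 ± 0.11) and the zinc finger gene *Zbtb42* (-1.82 ± 0.27 and -1.98 ± 0.27) were lower with apoE2 too, but for them apoE2 was near the control (-0.14 and -0.28) and the other isoforms were above it. *Hpca*, *Asph*, *Arhgef28* and *Smad3* passed the threshold against the control, and *Col28a1*, *Dsp*, *Epb41l5* and *Zbtb42* did not.

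**Figure D4:**
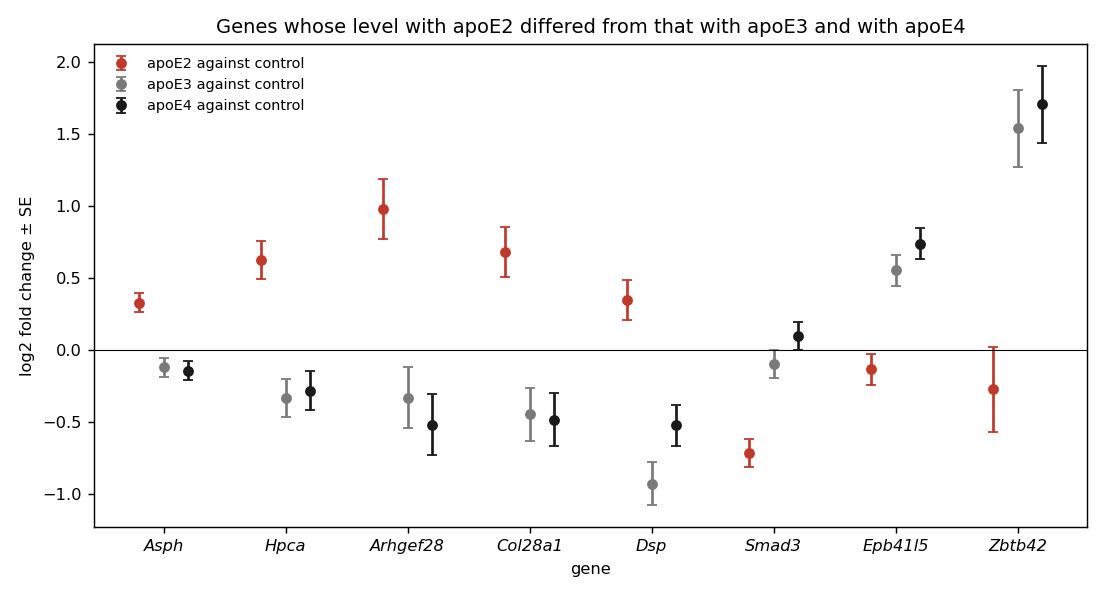
The log2 fold change against the control, with its SE, is given for apoE2 (red), apoE3 (grey) and apoE4 (black) for 8 genes, and the 3 comparisons share the control libraries. For *Asph*, *Hpca*, *Arhgef28*, *Col28a1* and *Dsp* the apoE2 value lies above 0 and the other values below it, and for *Smad3* the apoE2 value alone lies away from 0.

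For the leading genes the values of the other isoforms stand side by side as follows, with the control libraries in common. *Nptx1* had log2 fold changes of -1.26 with apoE2, -1.01 with apoE3 and -0.09 with apoE4, and *Cdh23* had -1.83, -1.697 and 0.00. *Bok* had -1.11, -0.90 and -0.10. All of these differed between apoE2 and apoE4 (edgeR adjusted p = 0.000246, 0.000417 and 0.000184) but not past the threshold between apoE2 and apoE3 (0.384, 0.842 and 0.384). *Ngfr* had 1.86, 3.19 and 0.44, and apoE2 differed from both (adjusted p = 0.0277 and 0.00861). *Spp1* and *Serpina3n* were lower with apoE2 than with apoE3, by -0.68 ± 0.12 and -1.23 ± 0.17 on the log2 scale (adjusted p = 0.0175 and 0.00427), and did not pass the threshold against apoE4 (0.0656 and 0.959). The reactive astrocyte list had a median of 0.75 with apoE2, 1.13 with apoE3 and 0.98 with apoE4. Of the 200 genes called higher with apoE2, 144 were also called higher with apoE3 and 56 with apoE4. Of the 94 called lower, 57 and 3 were also called lower. Among all 17038 tested genes, 1354 and 541 were called higher and 636 and 22 lower with apoE3 and apoE4. The shared control libraries make these overlaps no independent evidence.

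The size of the changes depended on the pair. Over the 200 higher genes the median log2 difference within a pair was 1.09, 0.81, 0.88 and 0.53 in pairs 1 to 4, and the smallest rise was in pair 4 for 110 of the 200. Over the 94 lower genes the medians were -0.86, -0.66, -0.58 and -0.80, so pair 4 was not the weakest for them. ApoE2 replicate 4, the deepest library, had 38.4% of its reads on no single gene, against 51.4 to 73.7% in the other 7, and without it 851 genes were called (634 higher and 217 lower). ApoE2 replicate 1, the shallowest, stood at the other end with 73.7%, and *Lars2* took 15.02% of its gene counts, against 0.690% to 8.36% in the other 7. Without it 156 genes were called. The part of these libraries in the difference between pairs was not tested. The count fell to 59 without control replicate 1 and to 21 without all 4 libraries of number 1. Each of the 20 fits that left out a library or a replicate number shared most libraries with the full fit. Some of them lacked only an apoE3 or apoE4 library. All 294 genes kept their direction in each of the 20 fits, but they were chosen in the full fit, so this is no independent evidence. In all of those fits 14 genes stayed called: *Spp1*, *Timp1*, *Sulf1*, *Rgs9*, *Cpne8*, *Map3k9*, *Ngfr*, *Nptx1*, *Bok*, *Cdh23*, *Mapk4*, *Kcnip3*, *Ldlrad4* and *E330009J07Rik*.

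**Figure D5:**
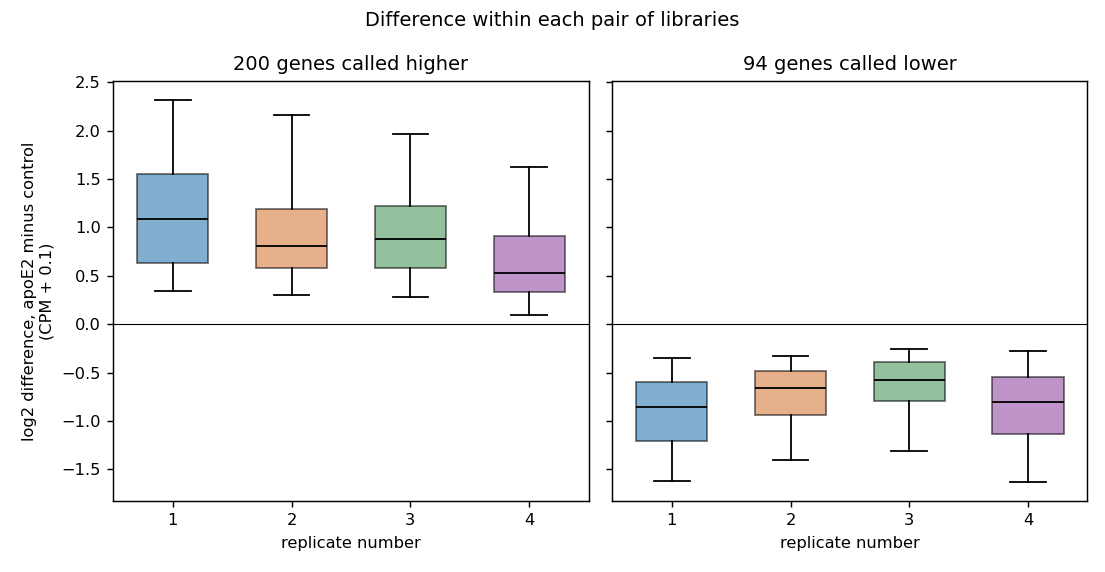
Boxes give the log2 difference between the apoE2 and the control library of each replicate number (CPM + 0.1) over the 200 genes called higher (left) and the 94 called lower (right), with the median as a line, the quartiles as box ends and the 5th and 95th percentiles as whiskers. The box of pair 4 is the lowest among the higher genes, with a median of 0.53, and not the smallest among the lower genes.

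The study states a criterion of a 2-fold change at an unadjusted p under 0.05. With the block, 174 genes were higher and 91 lower by it (1.56% of the tested genes), and without the block 72 and 51 (0.722%). The study chose its genes for apoE2 on these libraries, so their values are no independent evidence. From those genes a list of 18 was drawn for description, which is not the full set. Of these, 6 rose (*Ascl2*, *Prlr*, *Itga5*, *Tnc*, *Col2a1* and *Ngfr*) and 5 fell (*Gsg1l*, *Nptx1*, *Wnt7a*, *Gpc3* and *Slc30a3*). The other 7 did not pass: *Vdr* (1.601 ± 0.40, adjusted p = 0.0543) and *Syndig1l* (1.19 ± 0.31, adjusted p = 0.0687) came nearest, and *C1ql1*, *Otof*, *Stx11*, *Col4a3* and *Il7* had log2 fold changes of 0.91, -1.54, 1.21, 1.77 and 1.79. All of these but *Syndig1l* and *Otof* had a mean under 1 CPM in the control.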

How the data were processed

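Reads were aligned by the authors with STAR (mm10) and counted per gene with HTSeq, and the deposited values are raw counts per gene symbol, not normalized. The annotation and the strand setting of the counting are not given in the sources used here. The lines in which HTSeq totals reads given to no gene (38.4 to 73.7% of a library here) entered neither library sizes nor tests.

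Groups and replicate numbers came from the sample labels. Counts of all 16 libraries entered 1 edgeR 4.0.16 fit in R 4.3.3, with a coefficient per group, the replicate number as a block, TMM scaling (factors 0.889 to 1.15), the default low-count filter (minimum count 10, minimum total 15, minimum proportion 0.7) and the quasi-likelihood test, adjusted by Benjamini-Hochberg over the 17038 genes of each contrast. The block was used because same-numbered apoE2 and control libraries deviated together from their group means (correlations of 0.379, 0.789, 0.620 and 0.726 for numbers 1 to 4, against -0.678 to 0.493 between different numbers), which the labels do not say. For number 1 this was not the closest match: apoE2 replicate 1 correlated more with control replicate 4 (0.493) than with control replicate 1 (0.379). With the block the common dispersion fell from 0.132 to 0.0178. The study describes the 4 libraries of a group as independent cultures, and what libraries of the same number share is not stated. SEs follow from the fold change and the F statistic.

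The comparison, its members and the gene lists were chosen with earlier results of these data known. Named genes are the 15 higher and 15 lower with the smallest p and the 5 higher and 5 lower with the largest change among called genes with a mean of at least 1 CPM in either group, called members and up to 4 of smallest p of each list, *Apoe* and some of its receptors, genes the study names for apoE2 or stained, and the 8 that separate apoE2 from both other isoforms. The neuronal marker *Snap25*, *Il6st*, *Lifr*, *Lcn2*, *Trhr*, *Prokr2*, *Tshr* and the lists said to be chosen after values had been seen fall outside this rule, and a few genes within it are not reported here. Positions are from GENCODE M21 (GRCm38, the build of mm10) and promoters from RefSeq, with the window listed first where a gene had several. Alternatives were no block, DESeq2 1.42.0 with and without it, its size factors in edgeR, no filter, 1 CPM in 8 libraries, the 8 libraries alone, the test of the study's methods, and leaving out each library or number. Leaving out apoE3 and apoE4 libraries was added after the data had been seen.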

Additional observations from a re-analysis of the deposited data

Results flagged for a closer look

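In each gene named with levels or fold changes, the 4 control levels and the 4 apoE2 levels were checked for 1 library far from the others of its group (Dixon's test at the 95% level). Of 288 groups of 4 libraries, 15 held such a value. Chance gives about 1 in 20 in independent groups, but these genes were selected and share libraries, so that rate is no yardstick here. Control replicate 4 stood apart for 5 genes: *Ngfr* at 28.9 CPM and *Rbms1* at 9.11 CPM lay above the other control libraries (6.55 to 7.61 and 5.27 to 5.55 CPM), and *Cdh9* at 24.0, *Col25a1* at 52.1 and *Slc30a3* at 2.67 CPM lay below them (38.7 to 39.4, 74.8 to 75.6 and 12.8 to 14.8 CPM). *Ngfr* was also high in apoE2 replicate 4, at 96.7 CPM against 27.3 to 28.4 CPM. Control replicate 3 was high for *Bok* (51.5 against 14.8 to 16.7 CPM), *Kcnip3* (173 against 55.7 to 65.7 CPM) and *Ifi203* (19.7 against 1.57 to 4.27 CPM). With apoE2, replicate 3 was high for *Ifi203* (8.43 against 0.585 to 0.994 CPM) and for *Slc1a2* (1007 against 506 to 567 CPM). Control replicate 2 was high for *Grin3a* (49.9 against at most 17.5 CPM), *Ldlrad4* (14.3 against 8.64 to 9.39 CPM) and *Prlr* (1.77 against 0.471 to 0.663 CPM) and low for *Id2* (29.9 against 38.8 to 40.3 CPM).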

How the results depend on the processing

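Calls rested on the replicate block, a pairing seen in the data and not stated in the labels. Without the block the genes called against control went from 294 to 0 in edgeR and to 29 in DESeq2 (DESeq2's missing adjusted p-values left out), those against apoE3 from 224 to 0 and 9, and those against apoE4 from 757 to 43 and 163. The test of the study's methods called 0 in all 3 comparisons, the smallest adjusted p against control being 0.627. With the block DESeq2 called 709, 726 and 1242, and edgeR without a low-count filter 1091, 1242 and 1499. By the 2-fold criterion (265 genes), the count was 123 without the block, 135 with DESeq2 without the block, 91 with the study's test, 454 without a filter and 127 with the filter of 1 CPM. Leaving out 1 library or number gave 21 to 851 genes against control, 239 to 482 by the 2-fold criterion, 15 to 278 against apoE3 and 246 to 940 against apoE4. DESeq2 size factors, the stricter filter and the 8 libraries alone kept all 3 counts, where run, within 1.5 times, and of the 294 genes 278, 277 and 186 stayed called. None of the 144 genes named with levels or fold changes changed direction under the settings that kept all apoE2 and control libraries, and of 107 called ones, 107 lost the call without the block in edgeR and 94 in DESeq2. Leaving out libraries turned the direction of 7 uncalled genes. Over these fits the log2 fold change ranged from -0.044 to 0.40 for *Apoe*, -0.16 to 0.092 for *Grin1*, -0.015 to 0.20 for *Il6st*, -0.017 to 0.13 for *Lifr*, -0.12 to 0.23 for *Lrp1*, -0.16 to 0.067 for *Syp* and -0.073 to 0.049 for *Vldlr*. Leaving out apoE3 or apoE4 libraries was added after the data had been seen. Genes near 1 CPM rest on few reads.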

Other observations

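In 6 groups of general cell function no member passed the threshold, where 13.3% of all tested genes had an unadjusted p under 0.05. Of 52 clustered histone genes tested, 44 had a log2 fold change below 0, with a median of -0.23, and 14 had an unadjusted p under 0.05 (edgeR). Of 78 nuclear genes of oxidative phosphorylation, 64 lay above 0 with a median of 0.07, and of 83 cytosolic ribosomal proteins 67 with a median of 0.06. Of 10 mitochondrially encoded genes 9 lay above 0, with a median of 0.36 and 6 at an unadjusted p under 0.05, *mt-Nd2* having 161, 104, 141 and 130.3 CPM in the control and 166, 159, 270.1 and 129 CPM with apoE2. Of 21 NRF2 targets 16 and of 19 p53 targets 17 lay above 0, with medians of 0.18 and 0.25. These values describe directions within the lists and were not tested as sets.

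Among genes of contractile cells and interneurons, *Acta2*, smooth muscle actin, had 11.6, 1.13, 1.501 and 60.1 CPM in control replicates 1 to 4 and 33.5, 1.68, 3.29 and 53.6 CPM in apoE2 replicates 1 to 4 (log2 fold change 0.85 ± 0.33). *Gad1*, which makes GABA, had 319, 285, 191 and 240.2 CPM and 272, 207, 127 and 149 CPM, lower in all 4 pairs (-0.49 ± 0.13, edgeR adjusted p = 0.0677), and *Npy* had 22.4, 28.5, 31.7 and 60.4 CPM and 96.5, 47.2, 36.3 and 75.2 CPM, higher in all 4 pairs (0.84 ± 0.25, adjusted p = 0.112). *Gad1* and *Npy* belong to a list of 19 tested interneuron identity genes, none of which was called by edgeR (5 at an unadjusted p under 0.05). Of the 19, 13 lay below 0 and 6 above, with a median of -0.16, and *Npy* had the highest value. *Nupr1*, a stress-induced chromatin protein, rose by 1.08 ± 0.20 and *Litaf*, a lysosomal membrane protein, by 1.03 ± 0.23, the only calls of 27 genes of the integrated stress response and of 30 lysosomal genes.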
